A study of Mus musculus with 3 samples.

Results

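The GIMAP family (GTPases of the immunity-associated protein family) was examined in thymocytes, the T cells that develop in the thymus, of 3 wild-type mice. Its members were the 8 genes Gimap1, Gimap3, Gimap4, Gimap5, Gimap6, Gimap7, Gimap8 and Gimap9, of 19938 named genes in all. They were chosen by symbol from the array's annotation, with earlier results of these data known. Each member was read by 1 probe set. The mice, numbered 92, 103 and 106, had a mixed FVB and C57BL6 background and the genotype wt, and are the normal arm of a study of invasive lymphomas of tPTEN-/- animals. The lymphomas were not analysed here, so no comparison of tumour with normal tissue was made. Total RNA extracted with Trizol was labelled with biotin and read on Affymetrix MoGene 1.0 ST arrays, 1 per mouse. Every sample is labelled with 0.3 µg of RNA and a RIN (RNA integrity) of 3. That integrity is low, and it may limit every level given here. The labels give no age or sex, and their disease field names T cell lymphoma for these 3 samples although title and genotype read wt. Nothing beyond the mouse numbers describes how the samples were taken, so p-values measure only the spread between these 3 samples. Mouse 92 stood apart from mice 103 and 106 in sex-linked transcripts. It also had the lowest levels of the neutrophil, B cell and red cell markers tested, some of which were below background in mouse 92.

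GIMAP proteins are small GTPases of lymphocytes that sit on the membranes of organelles such as mitochondria, the endoplasmic reticulum and lysosomes, or in the cytosol. They bind and hydrolyse GTP, and several of them act together as dimers or scaffolds on membranes. The family is known for setting how long T cells live, and its genes are induced as thymocytes mature. Loss of some single members in mice or rats leaves the animals short of peripheral T cells.

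The 8 genes form a compact cluster on chromosome 6, in the order Gimap8, Gimap9, Gimap4, Gimap6, Gimap7, Gimap1, Gimap5, Gimap3 in the RefSeq table of assembly GRCm38.p6. All 8 matched that table by Entrez identifier. Between the first and the last of them the table lists 2 other genes, and neither was measured under a name of its own. Gimap6 and Gimap3 lie on the minus strand and the other members on the plus strand. The stretches before 4 start sites are printed because all members had their highest level in the same mouse. Gimap7 and Gimap3 had the widest ranges, Gimap6 had the deviations closest to the family's mean, and Gimap1 had the narrowest range. Each stretch is the 250 bases 5′ of the gene's start in RefSeq, GRCm38.p6, read along the gene. Capitals mark matches, on either strand, to the ETS core motifs AGGAAG and CGGAAG, the RUNX core motifs TGTGGT and TGCGGT and the FOXO motif GTAAACA.
Gimap7 (chr6:48718371-48718620, plus strand): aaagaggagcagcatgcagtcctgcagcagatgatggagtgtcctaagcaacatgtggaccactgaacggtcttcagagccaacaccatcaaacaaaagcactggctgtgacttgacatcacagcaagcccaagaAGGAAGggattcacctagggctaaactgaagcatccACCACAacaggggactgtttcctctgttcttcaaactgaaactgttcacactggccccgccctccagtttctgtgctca
Gimap3 (chr6:48770852-48771101, minus strand): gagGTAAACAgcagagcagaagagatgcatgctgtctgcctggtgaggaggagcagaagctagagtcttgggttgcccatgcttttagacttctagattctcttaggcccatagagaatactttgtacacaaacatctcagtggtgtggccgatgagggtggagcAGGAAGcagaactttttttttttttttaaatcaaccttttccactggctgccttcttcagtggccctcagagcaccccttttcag
Gimap6 (chr6:48708245-48708494, minus strand): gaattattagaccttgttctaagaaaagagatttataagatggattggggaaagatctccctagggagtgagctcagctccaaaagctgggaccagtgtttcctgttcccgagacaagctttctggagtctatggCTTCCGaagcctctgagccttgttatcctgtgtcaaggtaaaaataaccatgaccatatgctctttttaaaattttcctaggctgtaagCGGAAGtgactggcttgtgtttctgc
Gimap1 (chr6:48738797-48739046, plus strand): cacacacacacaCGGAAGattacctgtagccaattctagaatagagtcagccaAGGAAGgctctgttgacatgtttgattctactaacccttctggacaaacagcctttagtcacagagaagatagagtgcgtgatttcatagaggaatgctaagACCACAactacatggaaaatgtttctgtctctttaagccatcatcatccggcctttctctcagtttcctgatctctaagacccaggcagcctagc

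In these windows Gimap6 held CGGAAG at position -26 from its start and its reverse complement at -115, Gimap3 held AGGAAG at -85 and GTAAACA at -247, and Gimap7 held AGGAAG at -115 and the reverse complement of TGTGGT at -79. Gimap1 held CGGAAG at -238, AGGAAG at -197 and the reverse complement of TGTGGT at -95. Over windows of 300 bases, which add the first 50 bases of the transcript, all 9 windows of the 8 members had an ETS core, against 46.5% of the 32851 windows in the table. Gimap8 has 2 of these windows, which overlap, so that they are not separate observations. A RUNX core was found in 4 of the 9 member windows, against 22.4% of all windows, and the FOXO motif in 1 of the 9, that of Gimap3, against 3.65% of all windows. The motifs searched did not overlap each other in the printed stretches. These are matches of letters, and no binding was measured.

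Every GIMAP gene was detected in every mouse. A gene was called above background where it exceeded, on an array, the 95th percentile of 1203 olfactory, vomeronasal and trace amine receptors, the chemoreceptor genes of sensory neurons in the nose. The thresholds of the 3 arrays lay between 5.91, in mouse 92, and 6.10, in mouse 103, on the log2 scale. All 8 members exceeded them on all 3 arrays, where 61.8% of named genes did. Levels of different genes were not ranked, since probe sets differ in how strongly they bind their target. The members are related in sequence, Gimap3 and Gimap5 in particular being close paralogues in the mouse, and how much of a probe set's signal comes from another member was not tested.

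**Figure D1:**
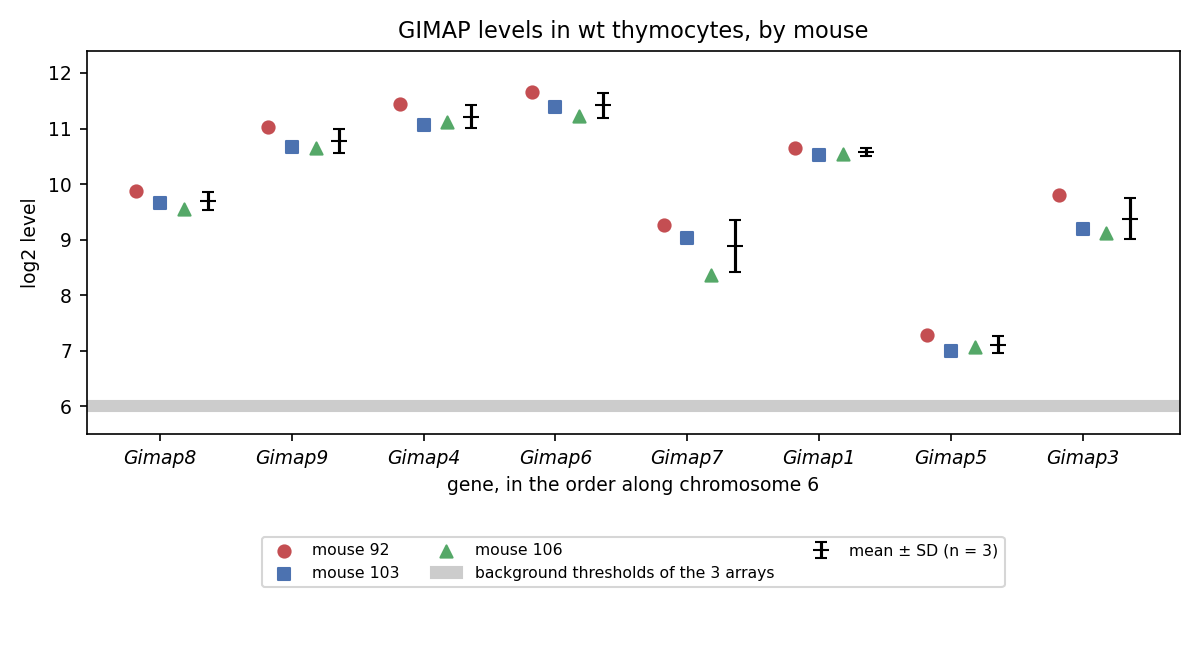
Log2 level of the 8 GIMAP genes (x axis, in their order on chromosome 6) in mice 92, 103 and 106 (points), with the mean ± SD of the 3 mice (bars) and the band of background thresholds from 5.91 to 6.10. Every point lies above the band, and mouse 92 is the highest of the 3 mice for each gene.

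Gimap5 and Gimap3 encode the pair of close paralogues, anchored in membranes. Gimap5, whose loss in mice and rats causes a lack of peripheral T cells, read 7.28 in mouse 92, 6.99 in mouse 103 and 7.06 in mouse 106 on the log2 scale. Mouse 92 was highest, and the level in mouse 103 lay 0.89 above that array's background threshold. Where the threshold was raised to the receptors' 99th percentile, Gimap5 was the 1 member that did not pass on every array. Gimap3, which in mice influences how mitochondrial DNA variants segregate in blood cells, had levels of 9.80, 9.20 and 9.12. Mouse 92 stood apart from the other mice, which differed by 0.08, so that the range was 0.67 on the log2 scale, or 1.60-fold.

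Gimap1, which mature T and B cells of mice need to survive, had levels of 10.66, 10.52 and 10.55 in mice 92, 103 and 106. Its range of 0.13, or 1.10-fold, was the narrowest of the family. Gimap8, which carries several GTPase domains in a single protein, had levels of 9.88, 9.66 and 9.54. Mouse 92 was again highest, by 0.22 over mouse 103 and by 0.34 over mouse 106.

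Gimap4, which in mice speeds the death of T cells once apoptosis has begun, had levels of 11.45, 11.07 and 11.12 in mice 92, 103 and 106. Mice 103 and 106 differed by less than 0.1 and lay below mouse 92 by 0.38 and 0.32. Gimap6, which binds the autophagy protein GABARAPL2, had levels of 11.66, 11.38 and 11.22. The 3 mice were spread more evenly for this gene, over a range of 0.45.

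Gimap7, whose human counterpart is active as a dimer that stimulates GTP hydrolysis, had levels of 9.26, 9.03 and 8.36 in mice 92, 103 and 106. It was the only member for which mouse 103 lay nearer to mouse 92 than to mouse 106, and its range of 0.90, or 1.86-fold, was the widest of the family. Gimap9 had levels of 11.03, 10.67 and 10.65. Mice 103 and 106 were almost level for Gimap9, differing by 0.02, while mouse 92 was 0.36 and 0.38 above them.

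All 8 members had their highest level in mouse 92, where 37.4% of the 13316 genes above background on at least 1 array did. The lowest level was in mouse 106 for 5 members (36.6% of genes tested) and in mouse 103 for the other 3, Gimap4, Gimap1 and Gimap5 (28.3% of genes tested). The differences were small. As a mean over the 8 genes, the level in mouse 92 was 0.31 above that in mouse 103, or 1.24-fold, and 0.42 above that in mouse 106, or 1.34-fold, on the log2 scale. The median of all genes tested was -0.01 and 0.02 for the same differences. Between mice 103 and 106 the mean difference was 0.11, with 5 members higher in mouse 103 and 3 higher in mouse 106, and over all genes tested the median was 0.04, with 58.7% higher in mouse 103. The members share a locus, the same 3 arrays and related sequence, so they are not 8 separate observations of the mice.

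The spread of each member was tested against the one that limma's trended prior fits for genes of like level. Values given below for genes of like level are SDs of that prior, not SDs observed in those genes. With limma's intercept fit and a trended prior variance, 0 of the 8 members varied between mice at a Benjamini-Hochberg adjusted p under 0.05, and 30 of 13316 genes, 0.225%, did. At an unadjusted p under 0.05, 2 members were found, Gimap7 and Gimap3, where 4.85% of genes tested were. Gimap7 had an SD of 0.46 (n = 3) against 0.15 for genes of like level (limma, adjusted p = 0.390), and Gimap3 an SD of 0.37 against 0.15 (limma, adjusted p = 0.744). Gimap6, Gimap9, Gimap4 and Gimap8 had SDs of 0.22, 0.21, 0.20 and 0.17 against 0.14 for genes of like level, and limma's adjusted p was 0.996 for each of them. Gimap5 and Gimap1 had SDs below the prior SD for their level, at 0.15 against 0.16 and 0.07 against 0.14. A gene that fails this test with 3 mice is not shown to be the same in them.

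The median range over the 8 members was 0.38 on the log2 scale, against 0.25 over all genes tested. Above that gene-wide median, which by definition splits all genes tested evenly, lay 7 members, and Gimap1 lay below it. Gimap7 and Gimap3 exceeded the 95th percentile of all genes tested, a range of 0.60. With mouse 92 left out, the members' median range was 0.08 against 0.14 over all genes tested, and 2 members lay above the gene-wide median. Those 2 were Gimap7 and Gimap6, whose levels in mice 103 and 106 differed by 0.66 and 0.17. For the other 6 members, mice 103 and 106 differed by less than the gene-wide median.

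**Figure D2:**
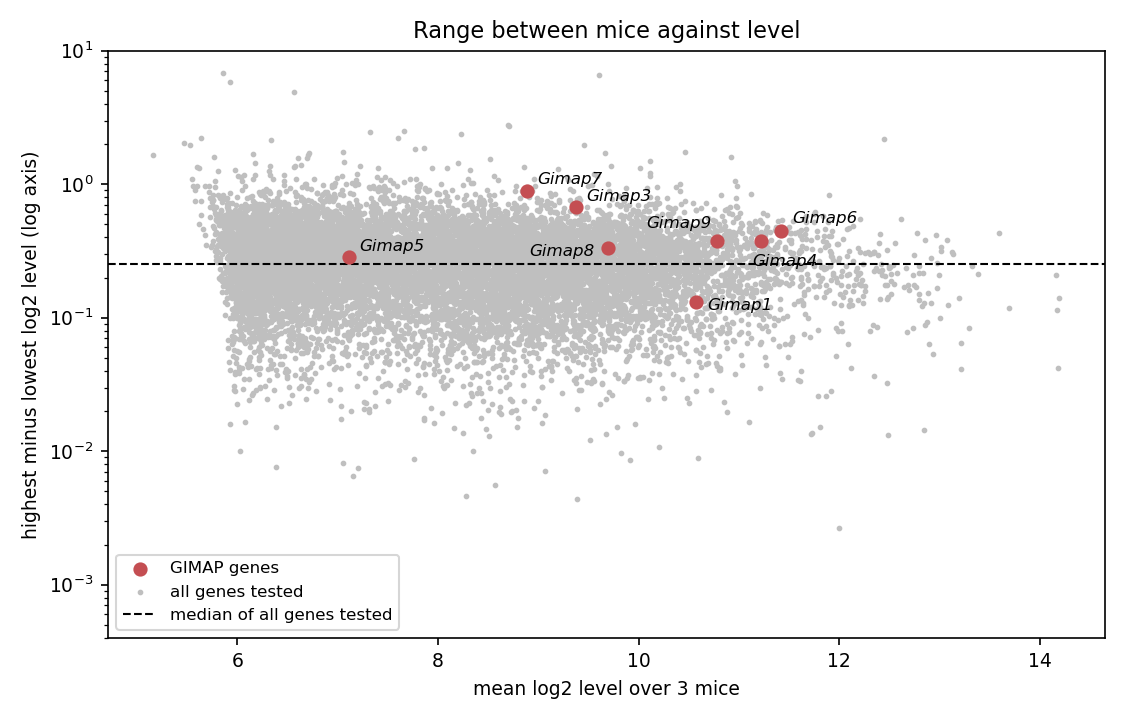
Range between mice, highest minus lowest log2 level (y axis, log scale), against the mean log2 level (x axis) for the GIMAP genes (red) and all 13316 genes tested (grey), with the gene-wide median of 0.25 dashed. Gimap7 at 0.90 and Gimap3 at 0.67 lie above the 95th percentile of all genes tested, 0.60, where ranges reach 6.87. Gimap1 at 0.13 lies below the dashed line.

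Deviations from each gene's own 3-mouse mean were then averaged over the members. The family lay 0.24 above its mean in mouse 92, -0.07 from it in mouse 103 and -0.18 in mouse 106. In mouse 92 the 8 deviations ran from 0.08 for Gimap1 to 0.42 for Gimap3, so that every member was above its own mean, as were 50.6% of all genes tested. In mouse 106 all 8 were below their means, with deviations between -0.03 for Gimap1 and -0.52 for Gimap7, where 58.4% of genes tested were below theirs. In mouse 103 Gimap7 was above its mean, at 0.14, and the other 7 members were below theirs, where 44.5% of genes tested were. Without Gimap7 the mean deviations in mice 92, 103 and 106 were 0.23, -0.10 and -0.13. For comparison, 5.96% of all genes tested deviated in mouse 92 by more than the family's mean did.

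The genes on either side of the cluster did not share this pattern in direction. Before Gimap8 the nearest measured genes were Repin1, Zfp775 and AI854703, and after Gimap3 they were Tmem176b, Tmem176a and Gm7932. In mouse 92 the deviations were -0.07, -0.11 and -0.05 for the first 3 and -0.17, -0.29 and -0.25 for the other 3, all below the gene's own mean. AI854703 was below background on all arrays. Tmem176a and Tmem176b, membrane protein genes of myeloid and dendritic cells, had their highest levels in mouse 103. None of the 5 neighbours tested varied between mice (limma, adjusted p = 0.996 for each, 0 at an unadjusted p under 0.05). The difference in deviation between the cluster and its neighbours was not tested.

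**Figure D3:**
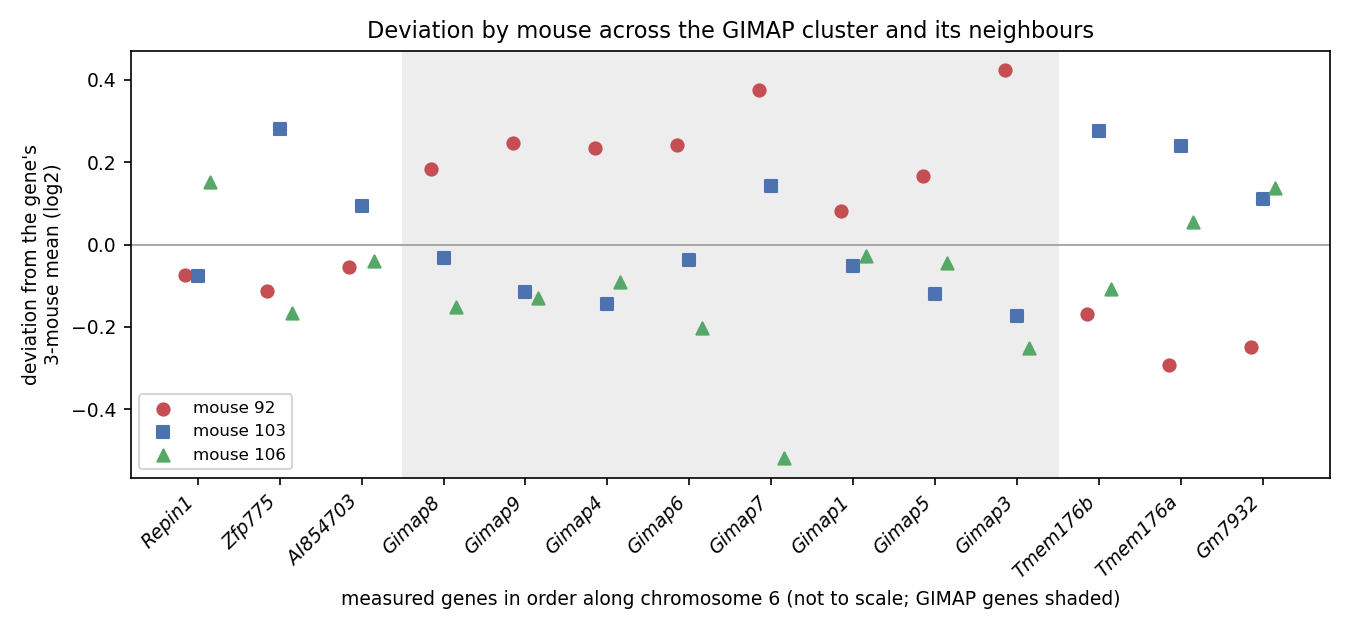
Deviation of each measured gene from its 3-mouse mean (y axis, log2) in mice 92, 103 and 106, for the GIMAP genes (shaded) and 3 neighbours on each side, in their order on chromosome 6 and not to scale. Mouse 92 lies between 0.08 and 0.42 for the GIMAP genes and below 0 for all 6 neighbours.

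Mouse 92 stood apart from the others beyond the GIMAP genes. The Y-linked genes below were highest in mouse 92, as the family was, while Xist and most genes of the other cell types were lowest there. Xist, which silences an X chromosome in females, read 5.30 in mouse 92, 11.85 in mouse 103 and 11.67 in mouse 106, and the Y-linked gene Eif2s3y had 10.42, 3.59 and 3.55. The Y-linked genes Eif2s3y, Uty and Kdm5d were above background in mouse 92 and in neither of the others. By these transcripts mouse 92 read as male and mice 103 and 106 as female. With a single male, sex cannot be separated from the mouse in these samples. Of 11 neutrophil genes tested, 11 were lowest in mouse 92, as were 10 of 10 B cell genes, 4 of 4 erythroid genes, 8 of 12 macrophage and dendritic cell genes and 7 of 9 NK and cytotoxic genes, where 35.1% of genes tested were. Their mean deviations in mouse 92 were -1.08, -0.63, -0.66, -0.26 and -0.25. Above background in every mouse were 7, 7, 4, 12 and 8 of the tested genes on these lists, in the order given. The remainder passed the filter only through mice 103 or 106. For those genes a low level in mouse 92 was largely set by the filter. The part of sex and of other cells in the GIMAP values was not tested. In bulk RNA, a change in the number of cells of a type and a change in the RNA per cell cannot be told apart.

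The neutrophil list had 12 of 12 genes measured, with levels of up to 6.93 in mouse 92, 9.72 in mouse 103 and 9.61 in mouse 106. Above background were 7, 11 and 10 of the 12 genes in these mice. Its 6 varying genes (limma, adjusted p under 0.05) were Ngp, Lcn2, S100a8, S100a9, Ltf and Mmp8. Of these, Mmp8 was above background in mouse 103 only. The granule gene Ngp, with the smallest p, had levels of 6.88, 9.63 and 9.61 (limma, adjusted p = 2.34e-04). B cell genes ran from 5.25 to 8.47 in mouse 92, from 5.99 to 9.56 in mouse 103 and from 5.80 to 8.85 in mouse 106, over 11 measured genes of which 7, 10 and 10 were above background. The complement receptor gene Cr2 was the 1 of them that varied, and its level in mouse 92, 5.74, was below background. The erythroid list held 1 varying gene of 4 tested, Alas2, which encodes a haem-synthesis enzyme of red cell precursors and read 8.18, 10.14 and 10.03 in mice 92, 103 and 106. No macrophage and dendritic cell gene varied (0 of 12, with 6 at an unadjusted p under 0.05), the widest range being that of the lysozyme gene Lyz2, at 9.36, 10.67 and 10.02 (limma, adjusted p = 0.0833). No NK and cytotoxic gene varied either (0 of 9, with 4 at an unadjusted p under 0.05), the chemokine gene Ccl5 having the widest range, at 8.67, 9.79 and 9.39.

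Endothelial cells also transcribe several GIMAP genes. Of 9 endothelial and stromal genes measured, 4 were above background in each mouse, but only 3 were so in all mice. The collagen genes Col1a1 and Col1a2 were above it in every mouse. Col1a1 was at 7.30, 7.52 and 7.39 and Col1a2 at 7.15, 7.26 and 6.99 in mice 92, 103 and 106. The angiopoietin receptor gene Tek was at 4.97, 5.17 and 4.90, the endothelial sialomucin gene Emcn at 3.99, 4.19 and 3.84 and the VEGF receptor gene Kdr at 5.86, 5.91 and 5.73 in mice 92, 103 and 106, all below background. Cdh5, the endothelial cadherin gene, was at 5.92, 5.87 and 6.16, just above background in mice 92 and 106 and below it in mouse 103. Pecam1, which lymphocytes express too, was at 9.75, 9.61 and 9.59. None of the 5 genes tested varied (limma, adjusted p under 0.05), with 1, Dcn, at an unadjusted p under 0.05. Dcn was at 5.39, 6.13 and 5.16 in mice 92, 103 and 106. It passed the filter only through mouse 103, where it was highest. The mean deviations of the 5 genes in mice 92, 103 and 106 were -0.04, 0.13 and -0.09. They include Dcn, whose deviation in mouse 103 was 0.57.

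Double-positive cells, at the CD4+ CD8+ stage, make up most of the thymus. Among thymocyte lists, theirs had the most positive mean deviation in mouse 92, where the GIMAP family was also highest. The lists of thymocyte identity and of maturing single-positive T cells also had their highest mean there, at 0.03 and 0.02. The likeness to the GIMAP family was not tested. Of the 12 measured double-positive genes, 10 were highest in mouse 92, where 37.4% of all genes tested were. The mean deviation of this list was 0.17 there, -0.07 in mouse 103 and -0.10 in mouse 106. The median deviation in mouse 92 was lower, at 0.09, with Aqp11 at 0.66 and Rag2 at 0.38. The aquaporin gene Aqp11 had the widest range, at 11.62, 10.69 and 10.56, followed by Cd1d1, which presents lipids to NKT cells, at 9.27, 9.47 and 8.61, and the recombinase gene Rag2 at 10.24, 9.41 and 9.91. None of the 12 varied at an adjusted p under 0.05 (limma), and 3 did so at an unadjusted p under 0.05. Genes of single-positive T cells that are maturing were highest in different mice. Whether the share of maturing cells differed between the mice was not tested. Of the 18 genes on the maturing list 5 were highest in mouse 92, 5 in mouse 103 and 8 in mouse 106. Over all genes tested, 37.4% were highest in mouse 92. The mean deviations of the maturing list were 0.02, -0.04 and 0.01 in mice 92, 103 and 106. The egress receptor gene S1pr1 was at 9.56, 8.94 and 9.66, the activation marker gene Cd69 at 9.98, 9.48 and 9.50 and the Schlafen gene Slfn1 at 9.77, 9.49 and 9.98. None of these 18 genes varied (limma, adjusted p under 0.05), with 1, S1pr1, at an unadjusted p under 0.05.

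Genes of early progenitors and double-negative thymocytes went the other way. Of 12 genes tested on this list 11 were lowest in mouse 92, where 35.1% of all genes tested were. The mean deviations were -0.32, 0.15 and 0.17 in mice 92, 103 and 106. The IL-2 receptor alpha chain gene Il2ra was at 7.77, 8.49 and 8.79, the Notch target Dtx1 at 8.26, 9.17 and 9.22 and the LIM domain gene Lmo2 at 7.32, 8.25 and 8.03. None varied at an adjusted p under 0.05 (limma), and 5 did so at an unadjusted p under 0.05. On the thymocyte identity list, 8 of 8 measured genes were above background in every mouse, as were 61.8% of named genes. Cd3d, for example, was at 11.72, 11.91 and 11.53 in mice 92, 103 and 106. T cells in general express genes such as Cd3d. Their detection therefore cannot settle the disease field, which names T cell lymphoma. Of the 8 identity genes, 6 were highest in mouse 92, where 37.4% of all genes tested were. Their mean deviations were 0.03, -0.01 and -0.02 in mice 92, 103 and 106. Of the 8, 0 varied (limma, adjusted p under 0.05), with 0 at an unadjusted p under 0.05.

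**Figure D4:**
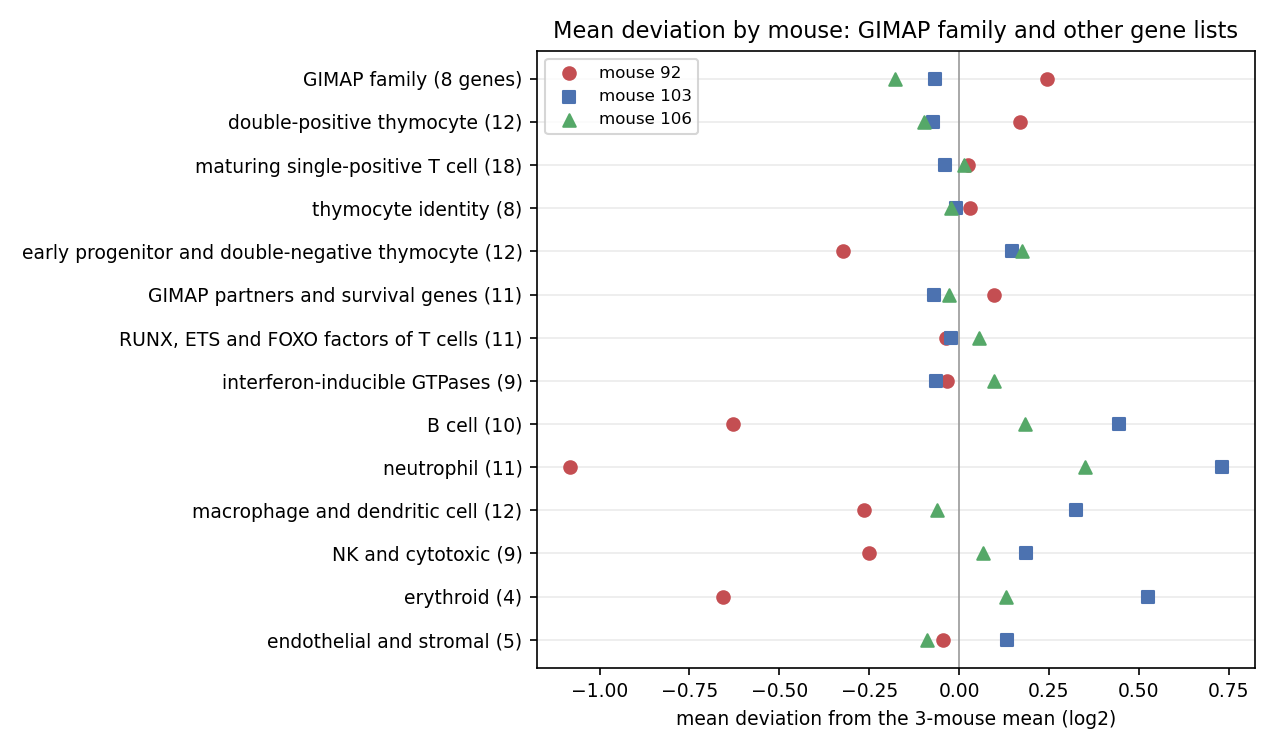
Mean deviation from the 3-mouse mean (x axis, log2) in mice 92, 103 and 106 for the GIMAP family (top row) and 13 other gene lists, with the number of genes averaged in brackets. Mouse 92 lies at 0.24 for the GIMAP family and at 0.17 for double-positive genes, and at -1.08 for neutrophil genes and -0.63 for B cell genes. The neutrophil and B cell means include genes below background in mouse 92, which passed the filter only through mice 103 or 106.

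A list of proteins that bind GIMAP proteins or act beside them in lymphocyte survival, namely the GABARAP and BCL2 families and the kinase GSK3 beta, had 11 genes measured. All 11 were above background in every mouse, as were 61.8% of named genes. Of the 11, 7 were highest in mouse 92, where 37.4% of all genes tested were. The mean deviations were 0.10, -0.07 and -0.03 in mice 92, 103 and 106. Gabarapl1, an autophagy gene, had the widest range, at 8.27, 7.62 and 7.47. Gabarapl2, whose product binds GIMAP6, was at 8.72, 8.45 and 8.67, and Bcl2l11, which encodes the death inducer BIM, at 9.88, 9.41 and 9.61. Gsk3b was at 10.45, 10.12 and 10.36. The list had 0 varying genes (limma, adjusted p under 0.05) and 1 at an unadjusted p under 0.05.

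The interferon-inducible GTPases, another family of GTPases of immune cells, did not lean to mouse 92. Of 10 measured members 9 were above background in every mouse, and Mx1 was below it in each. Of the 9 tested, 3 were highest in mouse 92, 2 in mouse 103 and 4 in mouse 106. Over all genes tested, 37.4% were highest in mouse 92. The family's mean deviations were -0.03, -0.06 and 0.10 in mice 92, 103 and 106. Iigp1 was at 6.57, 6.49 and 6.99, Mx2 at 7.00, 6.63 and 7.00 and the guanylate-binding protein gene Gbp7 at 9.44, 9.56 and 9.81. None varied (limma, 0 of 9, and 0 at an unadjusted p under 0.05).

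Transcription factors of the RUNX, ETS and FOXO families and their partners were all above background in every mouse, 11 of 11, as were 61.8% of named genes. Their mean deviations were -0.04, -0.02 and 0.06 in mice 92, 103 and 106. Ets1 was at 12.42, 12.12 and 12.21, Runx3 at 7.23, 7.75 and 7.83, Runx1 at 10.06, 10.11 and 10.38 and Gata3, the T helper and thymocyte factor, at 10.64, 10.84 and 10.99. None of the 11 varied (limma, adjusted p under 0.05), with 1, Runx3, at an unadjusted p under 0.05.

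The genes whose deviations were closest to the family's mean over the 3 mice were Arl14ep, Serinc1, Gla, Slc16a5 and Eif1ax, of 12307 other genes above background on all arrays. Likeness was the root mean square difference between a gene's 3 deviations and those of the family, and it was 0.002 to 0.006 on the log2 scale for these 5. Arl14ep, for example, had levels of 8.27, 7.96 and 7.85 in mice 92, 103 and 106. With only 3 mice many genes come close: 412 lay within 0.05 of the family, a distance under which 3 of the 8 members, Gimap6, Gimap8 and Gimap9, also fell. The pattern over 3 mice therefore did not single out these genes.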

How the data were processed

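The authors deposited 1 table of log2 levels, with 35557 probe sets on 3 arrays. Affymetrix Expression Console made them, per the submitters' processing notes; for its version, background correction, summarisation and normalisation the setting is not given in the sources used here (per the labels). The log2 scale was inferred from the values. The authors' normalisation may have used arrays not analysed here. The platform annotation gave 21789 probe sets a single symbol, 1621 several, and 12147 are unnamed here, and probe sets of a gene were averaged to 19938 genes. Genes above the 95th percentile of the receptor genes on at least 1 array entered limma 3.58.1 (R 4.3.3): the fit had an intercept only, the trended eBayes prior was not robust (10.4 degrees of freedom), each gene's residual variance was divided by its prior and tested as an F ratio in the upper tail, and p-values were adjusted by Benjamini-Hochberg over all genes tested. Named were all members, of each list the genes that varied or otherwise the 3 of widest range that passed background on every array, the 5 genes most alike, and 3 neighbours on each side. Genes outside this rule, among them Gabarapl2, Ets1, Tek, Emcn, Kdr, Cdh5, Dcn, Mx1 and the sex-linked genes, were chosen after their values were seen. Fcer1g, C1qc, Tbx21, Nkg7, Themis and Bcl11b, which the rule also selected, were left out of the text above. Members and lists were chosen with earlier results of these data known. The number of arrays, 3, limits the precision, and no probe build was given, so coordinates are RefSeq's. Alternatives were the background percentile, the prior, the normalisation, the filter and leaving out each mouse.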

Additional observations from a re-analysis of the deposited data

How the results depend on the processing

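The count of GIMAP genes varying between mice (limma, adjusted p under 0.05) was 0 under all 9 alternatives tried, with 1 or 2 members at an unadjusted p under 0.05. The smallest adjusted p of a member was 0.0979, for Gimap7 without mouse 92, and the highest for Gimap7 was 0.997; those of Gimap3 ran from 0.460 to 0.998. The count over all genes was 30, and 18 after quantile normalisation, 19 with the 99th percentile filter, 44 with a robust prior and 51 to 84 with 1 mouse left out; the cause was not tested. With background at the 99th percentile, 7 members passed on all arrays. All 8 members remained highest in mouse 92 after quantile normalisation, median centring and cyclic loess, where 29.5%, 39.2% and 33.8% of genes tested were. The family's deviation in mouse 92 was 0.20, 0.25 and 0.21 under the 3 normalisations. The median range of the members was 0.076 to 0.356 with 1 mouse left out, the lowest without mouse 92, where mouse 103 stood 0.06 above the family's mean in place of -0.07. No paired analysis was possible because the labels give a single group. The 3 mice and the unstated normalisation limit every value.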
